A study of Mus musculus with 32 samples.

Results

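The 48 genes described here build and run the mitotic and meiotic spindle: entry kinases and cyclins, Aurora kinases, the spindle checkpoint, the kinetochore, spindle motors, activators of the anaphase-promoting complex, regulators of sister chromatids and cytokinesis proteins. They were named by symbol and matched through mouse GENCODE release M21 (mm10) to 48 of the 55335 gene rows counted in each library; the matching itself used no measured value. RNA was sequenced in mouse oocytes, early embryos and embryonic stem cells, 32 libraries in 16 groups of 2. The oocytes were growing oocytes of postnatal day 14 (P14) carrying an H3.3WT or an H3.3K4M transgene, and wild-type oocytes arrested at metaphase of the second meiotic division (MII) from 8-week or 12-month females. The wild-type 2-cell embryos came from 6-8-week females and were cultured with DMSO (the vehicle), aphidicolin, cycloheximide or MG132, or came from 12-month females with no treatment. The wild-type 4-cell embryos came from 6-8-week females and were cultured with DMSO, aphidicolin, cycloheximide or MG132. AB2.2, an established mouse embryonic stem cell line taken as wild type, was given DMSO, cycloheximide or MG132.

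H3.3 is the histone H3 variant that oocytes load outside S phase, and in H3.3K4M its lysine 4, a site of methylation at active promoters, is a methionine. H3.3WT oocytes carry a transgene too, so both P14 groups are transgenic. The promoter of the transgenes, the doses and hours of the drugs, and the number of oocytes or embryos in a library are not stated in the labels. Aphidicolin blocks replicative DNA polymerases, cycloheximide blocks the elongation step of translation, and MG132 blocks the proteasome. No label ties the 2 libraries of a group to separate animals or cultures, so the p-values below measure only the spread between these libraries, which may be technical.

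At entry into division, cyclin-dependent kinase 1 bound to a cyclin drives spindle assembly, and kinetochores built on centromeric chromatin capture microtubules. Unattached kinetochores signal through the spindle checkpoint to hold back the anaphase-promoting complex. Once released, that complex marks securin and cyclin B for the proteasome, separase cuts cohesin, and the cell divides. A growing oocyte stores these messenger RNAs for the meiotic divisions and the first cleavages, an MII oocyte waits with its spindle built, and in the mouse the main wave of embryonic transcription begins at the 2-cell stage while maternal RNA is degraded.

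Total counts ran from 14313718 to 34713159 per library. The 48 genes took 1.17% to 1.33% of the counts on genes in the P14 libraries, 2.44% to 3.0% in MII oocytes, 1.48% to 1.91% in 2-cell embryos, 0.736% to 1.45% in 4-cell embryos and 0.482% to 0.570% in stem cells. Levels are CPM, counts scaled to library size, on a trimmed-mean scale over the 32 libraries, whose scaling factors ran from 0.504 to 1.90. Oocytes and embryos were sequenced by a low-input method and stem cells with another kit, so a level set across the 2 methods depends on that scale. Oocyte markers (10 genes) summed to 67209 to 78722 CPM in P14 oocytes and 27891 to 32352 in MII oocytes, the 10 2-cell markers to 1276 to 1465 in DMSO 2-cell embryos, and the 10 pluripotency markers to 2526 to 2581 in DMSO stem cells. Beside these, the cumulus and granulosa list summed to 119 to 173 CPM in MII oocytes, led by Cyp19a1, with Amh at 0. Other genes of that list differed between replicates 1 and 2 of the MII groups. Gja1 stood at 47.5 and 0.168 CPM in 8-week and 33.6 and 14.3 in 12-month oocytes. Tnfaip6 stood at 10.8 and 0 CPM in 8-week and 21.7 and 1.49 in 12-month oocytes. The 8 fibroblast markers summed to 602 to 729.8 CPM in DMSO stem cells. Of the 48 genes, 14 share exon bases with another gene and 6 share over 10% of them: Sgo2a with Kctd18, Kif20a with Cdc23, Ube2c with Tnnc2, Kif4 with Pdzd11, Ccna2 with Exosc9, and Prc1 with Rccd1. Strand use in the counting is not given in the sources used here, so reads in those bases could come from either gene.

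Among cyclins and entry kinases, cyclin B1 was the most abundant per kilobase in MII oocytes and 4-cell embryos. Pairs of values below are the 2 libraries of a group in the order of their labels. Ccnb1 (cyclin B1, ENSMUSG00000041431.16, mm10 chr13:100778650-100786570) stood at 969 and 1025 CPM in P14 H3.3WT oocytes, 5320.2 and 8197 in MII 8-week oocytes, 2282 and 2337 in DMSO 2-cell embryos, 2085 and 1997 in DMSO 4-cell embryos and 202 and 196 in DMSO stem cells. Per kilobase of exon it was the second most abundant of the 48 genes in MII 8-week oocytes (1603 CPM per kilobase) and the most abundant in DMSO 4-cell embryos (484). Cdk1, its kinase partner, stood at 144 and 161 CPM in P14 H3.3WT, 83 and 195 in MII 8-week, 59.3 and 48 in DMSO 2-cell, 375 and 302 in DMSO 4-cell and 83.6 and 84.9 in DMSO stem cell libraries. Its lowest libraries of all 32 were the 12-month 2-cell embryos (24.8 and 25.2 CPM). Ccna2, cyclin A2, stood at 115 and 114 CPM in P14 H3.3WT, 166 and 180.3 in MII 8-week, 211 and 129 in DMSO 2-cell, 483 and 356 in DMSO 4-cell and 105 and 102 in DMSO stem cell libraries, so that both 4-cell libraries were above the others. Plk1, the Polo-like kinase of spindle poles and kinetochores, ranged over 21.6 to 81.8 CPM in these 10 libraries.

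The Aurora kinases differed in where they were highest. Aurka, the spindle-pole kinase, was highest of these 5 groups in P14 H3.3WT oocytes (239 and 284 CPM) and stood at 77.8 and 119 in MII 8-week, 80.6 and 80.5 in DMSO 2-cell, 164 and 144 in DMSO 4-cell and 69.1 and 65 in DMSO stem cell libraries. Aurkc, the germ-cell paralog that works in the chromosomal passenger complex of oocytes (ENSMUSG00000070837.5, chr7:6995300-7003091), stood at 219 and 261 CPM in P14 H3.3WT, 176 and 322 in MII 8-week, 10.05 and 18.6 in DMSO 2-cell, 104 and 134 in DMSO 4-cell and 13.7 and 13.7 in DMSO stem cell libraries. It was thus lowest in DMSO 2-cell embryos and stem cells, whose ranges overlapped. Aurkb, the somatic enzyme of that complex, stood at 9.35 and 11.9 CPM in P14 H3.3WT, 1.63 and 4.37 in MII 8-week, 7.58 and 2.52 in DMSO 2-cell, 44.4 and 17.2 in DMSO 4-cell and 40.5 and 37.6 in DMSO stem cell libraries. Per kilobase, Aurkc exceeded Aurkb in P14 H3.3WT (158 against 3.60 CPM per kilobase) and in DMSO 4-cell embryos (78 against 10.4), and in DMSO stem cells Aurkb was the higher (13.3 against 9.005).

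Among checkpoint genes, Mad2l1 was far higher in oocytes and embryos than in stem cells. Mad2l1, which encodes the inhibitor that captures Cdc20, stood at 766 and 844 CPM in P14 H3.3WT, 3181 and 4387 in MII 8-week, 956 and 1395 in DMSO 2-cell, 757 and 618 in DMSO 4-cell and 67.6 and 67.6 in DMSO stem cell libraries. Bub1, a kinase of the unattached kinetochore, stood at 65.4 and 52.2 CPM in P14 H3.3WT, 31.6 and 14.7 in MII 8-week, 28.9 and 51.5 in DMSO 2-cell, 36.1 and 23.8 in DMSO 4-cell and 44.4 and 44.4 in DMSO stem cell libraries. The centromeric histone Cenpa stood at 80.8 and 82 CPM in P14 H3.3WT, 124 and 135 in MII 8-week, 143 and 76 in DMSO 2-cell, 228 and 244 in DMSO 4-cell and 62.7 and 60.3 in DMSO stem cell libraries. Of these groups it was highest in 4-cell embryos. Over the 32 libraries Cenpa ran over 37.3 to 574 CPM.

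Kif11 and Tpx2 were highest at different stages. Kif11, the motor that pushes spindle poles apart, stood at 41 and 33 CPM in P14 H3.3WT, 73.3 and 48.9 in MII 8-week, 32.1 and 11.6 in DMSO 2-cell, 214 and 186 in DMSO 4-cell and 55.6 and 57.4 in DMSO stem cell libraries. Tpx2, a microtubule nucleation factor that activates Aurka, stood at 69.4 and 63.8 CPM in P14 H3.3WT, 574 and 466 in MII 8-week, 180.1 and 190.4 in DMSO 2-cell, 222 and 233 in DMSO 4-cell and 103 and 103 in DMSO stem cell libraries. Of these 5 groups Kif11 was highest at 4 cells and Tpx2 at MII.

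The activators of the anaphase-promoting complex were split. Cdc20, the activator held by the checkpoint, stood at 54.6 and 67.4 CPM in P14 H3.3WT, 174 and 245 in MII 8-week, 51.7 and 39.2 in DMSO 2-cell, 176 and 180.4 in DMSO 4-cell and 125 and 116 in DMSO stem cell libraries. Fzr1 (Cdh1), which takes over after anaphase and in arrested oocytes, stood at 38.2 and 33.8 CPM in P14 H3.3WT, 1.63 and 0.896 in MII 8-week, 8.95 and 9.49 in DMSO 2-cell, 1.63 and 0.965 in DMSO 4-cell and 79.1 and 79.7 in DMSO stem cell libraries. Ube2c, the ubiquitin-conjugating enzyme of the complex, stood at 925 and 964 CPM in P14 H3.3WT, 122 and 131 in MII 8-week, 89.98 and 124 in DMSO 2-cell, 509 and 509.8 in DMSO 4-cell and 102 and 93.8 in DMSO stem cell libraries. Fzr1 was thus highest in stem cells and near 1 CPM in MII oocytes and 4-cell embryos, Ube2c was highest in P14 oocytes, and Cdc20 was higher in MII than in P14 oocytes.

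Securin dominated the group. Pttg1 (securin, the inhibitor of separase, ENSMUSG00000020415.16, chr11:43420250-43426251) stood at 4225 and 4457 CPM in P14 H3.3WT, 20650.1 and 20327 in MII 8-week, 2402 and 4492 in DMSO 2-cell, 765 and 727 in DMSO 4-cell and 17.9 and 18.7 in DMSO stem cell libraries. Per kilobase it reached 10244 CPM in MII 8-week oocytes, the highest of the 48 genes there, and 1724 in DMSO 2-cell embryos. Espl1, separase itself, stood at 31.6 and 29.8 CPM in P14 H3.3WT, 66 and 59.3 in MII 8-week, 13.5 and 13.2 in DMSO 2-cell, 25.4 and 33 in DMSO 4-cell and 107 and 107 in DMSO stem cell libraries, and per kilobase only the stem cells of these 5 groups had more Espl1 (12.2) than Pttg1 (9.14). Sgo2a, the shugoshin that shields cohesin in meiosis, stood at 20.3 and 19.5 CPM in P14 H3.3WT, 184 and 106 in MII 8-week, 34.9 and 21.1 in DMSO 2-cell, 24.2 and 13 in DMSO 4-cell and 20.3 and 20.7 in DMSO stem cell libraries, with 35.0% of its exon bases shared with Kctd18. Top2a, which untangles sister DNA, stood at 17.9 and 17.3 CPM in P14 H3.3WT, 20.8 and 9.69 in MII 8-week, 34.5 and 41.1 in DMSO 2-cell, 182 and 179 in DMSO 4-cell and 239.8 and 248 in DMSO stem cell libraries.

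Rec8, the cohesin subunit of meiotic chromosomes, was under 1 CPM in each oocyte and embryo library except the cycloheximide 4-cell pair. It had 0 counts in both libraries of the P14 H3.3WT, MII 8-week, MII 12-month, cycloheximide 2-cell and MG132 2-cell groups, which allows at most 0.0567 to 0.0813 CPM over a group (3 counts, counting error only). Its values were 0.335 and 0.531 CPM in DMSO 2-cell, 0 and 0.483 in DMSO 4-cell, 3.48 and 5.31 in cycloheximide 4-cell and 5.76 and 5.996 in DMSO stem cell libraries. Rec8 passed the filter on low counts in no comparison among oocytes, so 47 of the 48 genes were tested there and all 48 elsewhere.

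**Figure D1:**
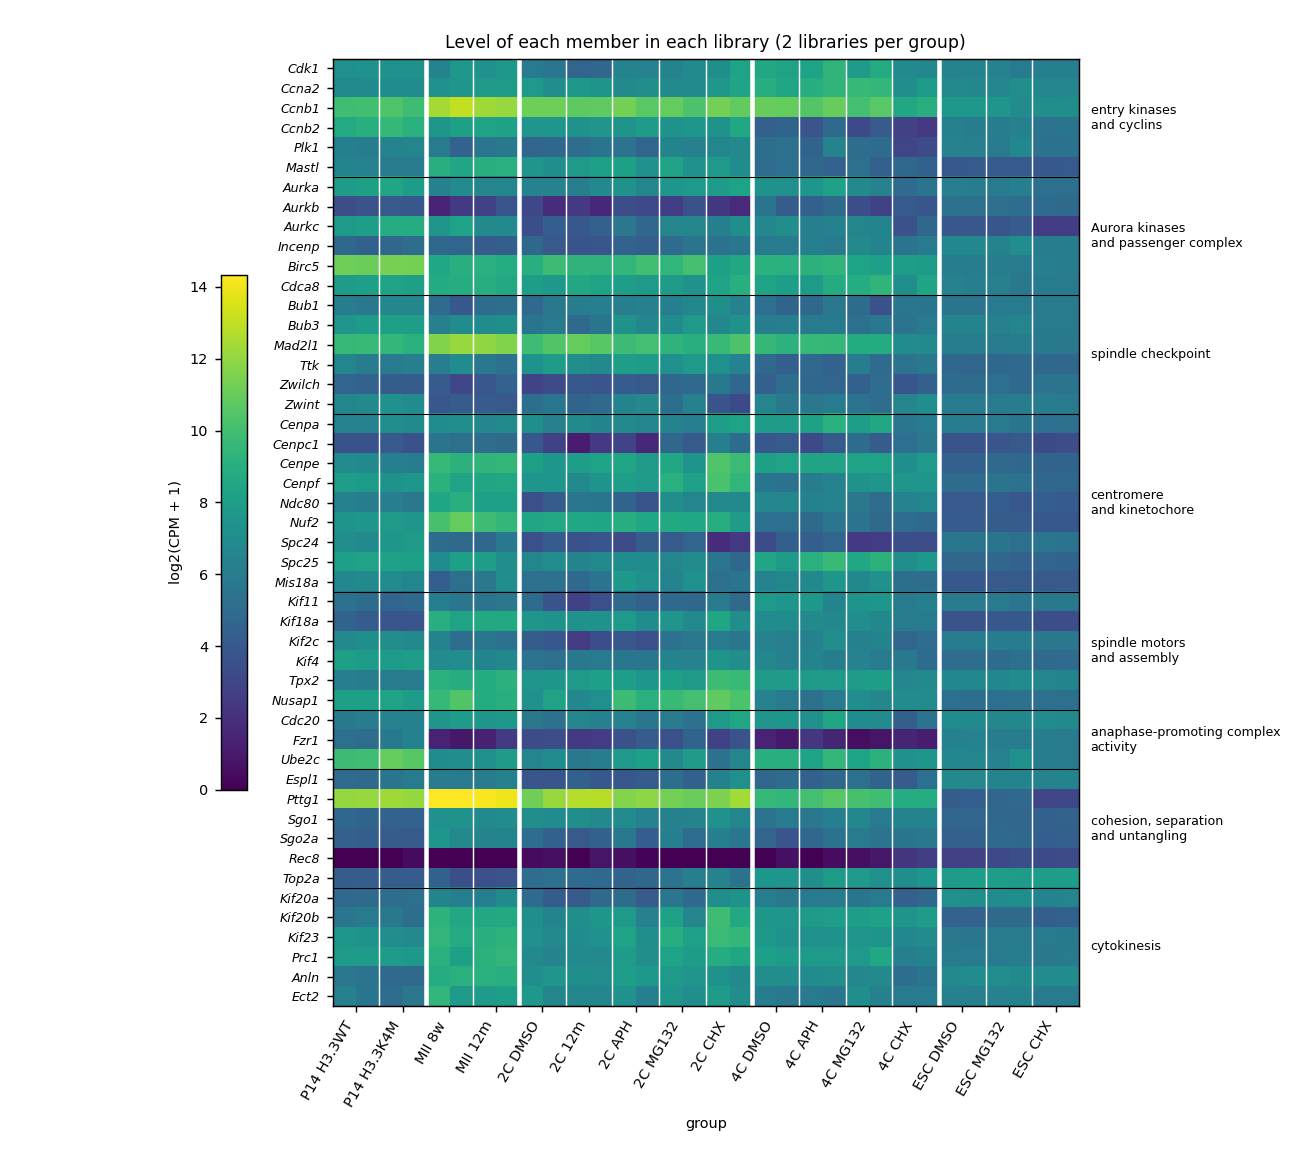
Level of each of the 48 genes in each of the 32 libraries, as log2(CPM + 1) in colour, with genes in rows ordered by role and the 2 libraries of each group side by side. Pttg1 and Ccnb1 are the brightest rows in MII oocytes, Rec8 is dark in all oocyte and 2-cell libraries, and Fzr1 is dark in MII and 4-cell libraries.

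**Figure D2:**
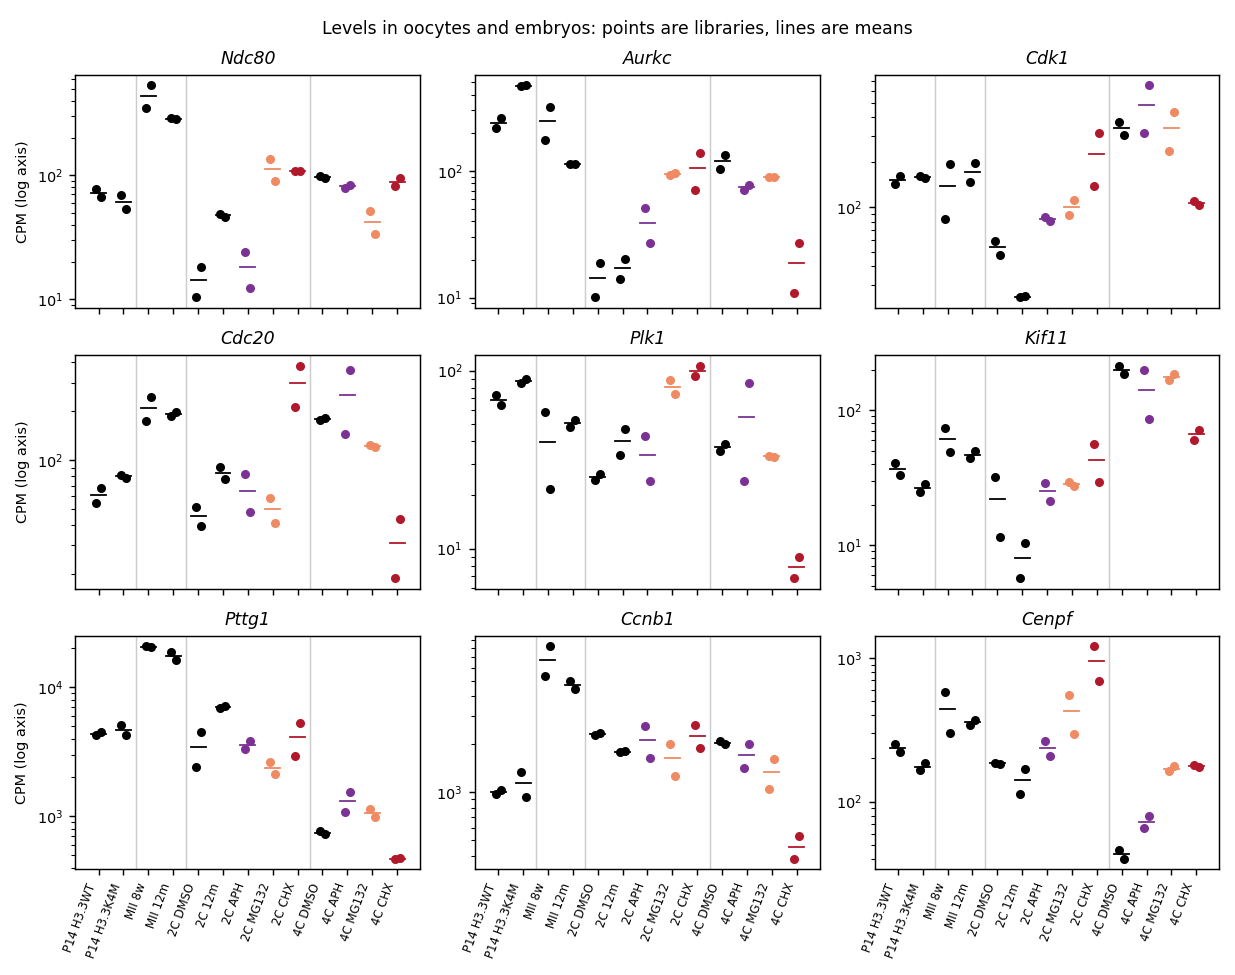
CPM on a log axis of 9 of the genes in the 13 oocyte and embryo groups. Points are libraries, lines are group means, and colours mark the drug (black for none or DMSO, purple for aphidicolin, orange for MG132, red for cycloheximide). Ndc80 and Aurkc are lowest in DMSO 2-cell embryos, and Cdc20 and Plk1 are high with cycloheximide at 2 cells and low with it at 4 cells.

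The first comparison set the 2 transgenes against each other in P14 oocytes. With H3.3K4M, 2 of 3 genes of the anaphase-promoting complex (Ube2c and Fzr1), 1 of 5 genes of cohesion and separation (Espl1) and Aurkc, Spc24 and Bub1 were among those higher, and 2 of 6 cytokinesis genes (Anln and Kif23) among those lower. Of 47 genes tested, 11 (23.4%) passed an adjusted p of 0.05, here called, in edgeR's quasi-likelihood test over all genes, 7 higher and 4 lower. This was close to the 22.4% called among the 15386 genes tested, of which 8.64% were higher and 13.7% lower. The median log2 change was 0.05 over the 47 genes and 0.00 over all genes.

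Both Ube2c (925 and 964 CPM in H3.3WT, 2010.2 and 1571 in H3.3K4M) and Fzr1 (38.2 and 33.8 in H3.3WT, 54.4 and 78.8 in H3.3K4M) were higher with H3.3K4M, by 0.91 ± 0.19 (log2 ± SE, adjusted p = 0.005) and 0.86 ± 0.19 (adjusted p = 0.0063). Aurkc rose from 219 and 261 to 466 and 475 CPM, a change of 0.95 ± 0.17 (adjusted p = 0.0015), and Espl1 from 31.6 and 29.8 to 46.2 and 61.3, a change of 0.78 ± 0.18 (adjusted p = 0.0077). Higher levels were also called for Spc24, an Ndc80-complex subunit (132 and 111 to 190.0 and 225 CPM), for Bub1 (65.4 and 52.2 to 96.9 and 100.1) and for Cenpa. Lower levels were called for the kinetochore motor Cenpe (118 and 113 to 72.3 and 65.6 CPM, -0.76 ± 0.16, adjusted p = 0.0049) and the cytokinesis scaffold Anln (49.8 and 44.2 to 28.7 and 29, -0.72 ± 0.17, adjusted p = 0.0092). Kif23, a motor of the central spindle, and Mastl, the Greatwall kinase, changed by -0.56 and -0.55. In each of the 11 called genes the 2 groups of libraries did not overlap. This was so in 29 of the 47 genes tested, so it does not set the called genes apart. The share over all genes was not computed. Without any 1 of the 4 libraries 6 to 13 genes were called, with 6 without P14 H3.3WT replicate 1, and 4 of the 11 calls held in every such fit. Those 4 were Aurkc, Fzr1, Espl1 and Cenpe. The 10 2-cell markers summed to 11.1 to 20.3 CPM with H3.3WT and 0.419 to 1.61 with H3.3K4M, and their part was not tested. Among 119 other mitotic genes listed for comparison, 14 were higher and 8 lower of 118 tested, including Haus1 of the augmin complex (2.32 ± 0.20).

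From P14 H3.3WT to MII 8-week oocytes the group turned over. All 6 cytokinesis genes rose, 6 of 9 kinetochore genes and 4 of 6 spindle genes rose, and 2 of 3 genes of the anaphase-promoting complex and 3 of 6 checkpoint genes fell. Of 47 genes tested, 39 (83%) were called, 26 higher and 13 lower, where 61.8% of 17773 genes were called, 27.4% higher and 34.4% lower. The 2 groups differ in the transgene as well as in stage, and these cannot be told apart. Here as in every comparison, fewer cells of a type and less RNA per cell cannot be told apart in a bulk library.

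Kif18a, a motor that damps chromosome oscillation, went from 23.2 and 16.8 CPM in P14 H3.3WT to 508 and 305 in MII 8-week oocytes, 4.35 ± 0.31 on the log2 scale (adjusted p = 1.7e-05). Anln went from 49.8 and 44.2 to 466 and 551 CPM (3.45 ± 0.22, adjusted p = 1.2e-05), and Kif20b, a cytokinesis kinesin, from 48.7 and 60.1 to 627 and 375 (3.20 ± 0.34). Nuf2, the partner of Ndc80, went from 172 and 187 to 1139.7 and 1977 CPM (3.13 ± 0.32). Tpx2 and Sgo2a rose by 2.97 ± 0.23 and 2.87 ± 0.29, and Ccnb1 and Pttg1 by 2.77 ± 0.30 and 2.25 ± 0.22. In each of these genes both MII libraries lay above both P14 libraries. The rule for describing genes required this of all but Ccnb1 and Pttg1.

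On the falling side, Fzr1 changed by -4.81 ± 0.53 (adjusted p = 1.1e-04) from 38.2 and 33.8 CPM to 1.63 and 0.896 CPM, and Ube2c changed by -2.89 ± 0.29 (adjusted p = 6.9e-05). Zwint, a link between the checkpoint and the Ndc80 network, went from 96.1 and 111 to 14.1 and 17.2 CPM (-2.72 ± 0.26). Birc5 (survivin), a passenger-complex subunit, went from 2281 and 2199 to 368 and 522 CPM (-2.32 ± 0.25). Spc24 changed by -1.96 ± 0.33 and Mis18a, which readies centromeres for Cenpa, by -1.89 ± 0.49. Of the 4 Ndc80-complex subunits, Ndc80 and Nuf2 were thus called higher, Spc24 lower, and Spc25 (274 and 301 CPM in P14 H3.3WT, 125 and 286 in MII 8-week oocytes) was not called. Without any 1 library 30 to 40 genes were called, and 28 of the 39 calls held in every such fit. Under DESeq2 size factors the median of all genes moved from -0.26 to -0.13, and 26 genes were higher and 12 lower. The 10 oocyte markers summed to 67209 to 76498 CPM in P14 H3.3WT and 31857 to 32352 in MII 8-week oocytes, and the cumulus and granulosa list to 11.0 to 11.9 and 119 to 141; their part was not tested. Of 118 other mitotic genes tested, 42 were higher and 39 lower, including Clasp2, a microtubule plus-end factor (5.95 ± 0.33), and Hjurp, the chaperone of Cenpa (-5.16 ± 0.36).

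**Figure D3:**
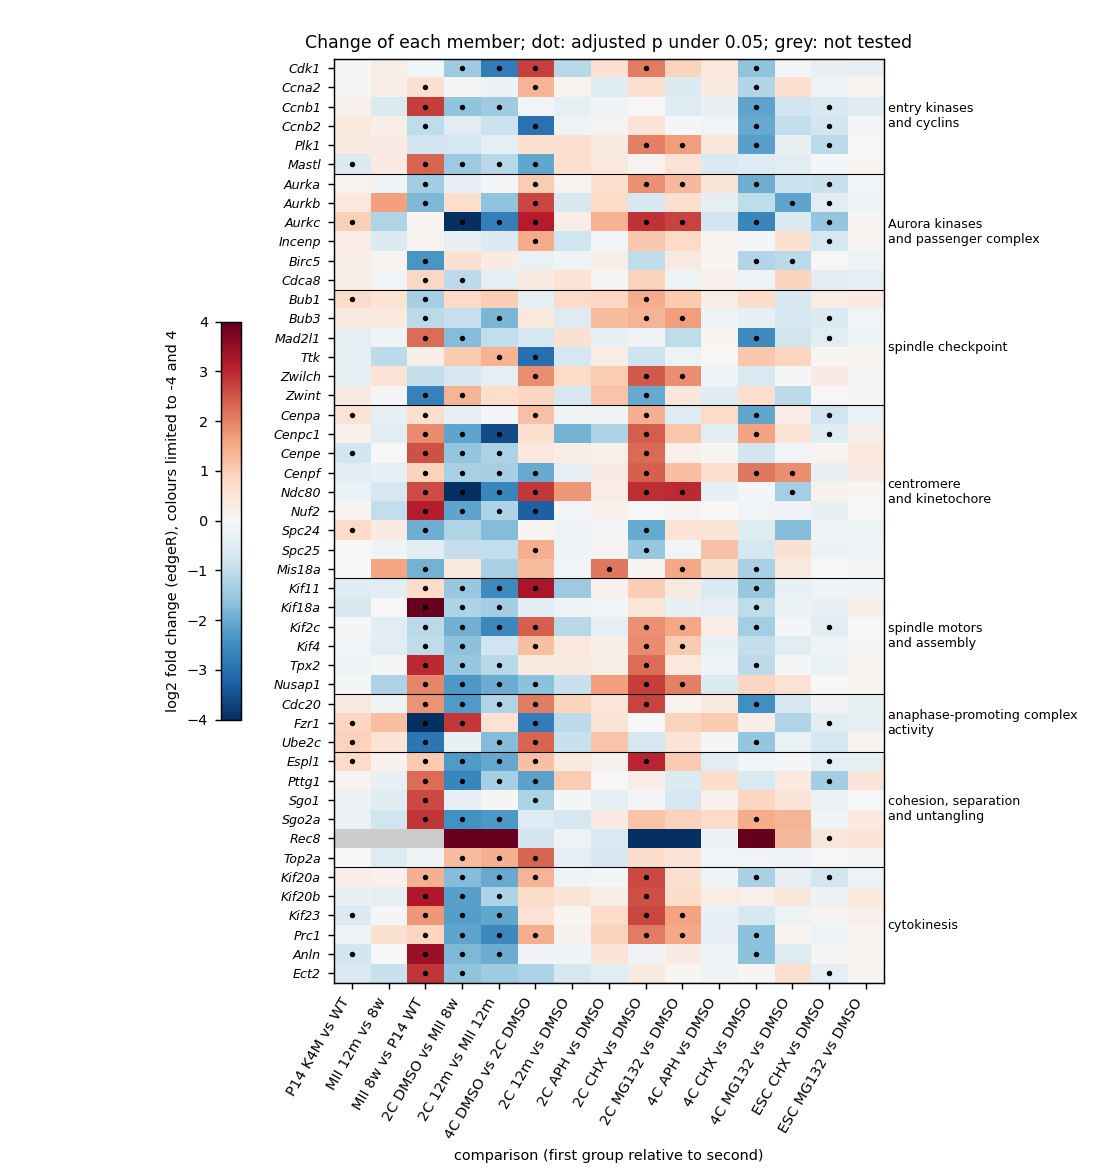
Fitted log2 fold change (edgeR) of each gene in the 15 comparisons between 2 groups, in colour from blue (lower in the first group) to red, limited to -4 and 4. Black dots mark an adjusted p under 0.05 and grey marks genes not tested. On the axes 2C and 4C are the cell stages, APH is aphidicolin, CHX cycloheximide and ESC the stem cells, and the deep colours of Rec8 set its levels against groups at 0 counts and give no size. The MII to 2-cell columns are mostly blue, and the cycloheximide columns are mostly red at 2 cells and blue at 4 cells.

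Age of the female was compared at 2 stages. In MII oocytes from 12-month against 8-week females, 0 of 47 genes were called by edgeR, 6 had an unadjusted p under 0.05 and DESeq2 called 1, beside 0.802% of 15083 genes called (0.272% higher and 0.530% lower). In 2-cell embryos from 12-month females against DMSO 2-cell embryos, 0 of 48 genes were called by edgeR, 8 had an unadjusted p under 0.05 and DESeq2 called 1, beside 1.21% of 22391 genes called (0.469% higher and 0.746% lower). The 12-month embryos were untreated and the others had DMSO, so age and vehicle cannot be told apart. Here and in the comparisons below, shares of all genes at an unadjusted p or by DESeq2 are not given. Ndc80 is an example of a gene that did not pass: it stood at 49 and 46.1 CPM in 12-month and 10.3 and 18.1 in DMSO 2-cell embryos (1.74 ± 0.40, adjusted p = 0.066). Pttg1 stood at 6871 and 7131 CPM in 12-month and 2402 and 4492 in DMSO 2-cell embryos (1.02 ± 0.36, adjusted p = 0.24). In the MII comparison 7 genes were called without MII 8-week replicate 1 and 2 without MII 8-week replicate 2.

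From MII oocytes to 2-cell embryos most of the group fell, and the same step could be followed in 2 separate sets of libraries. From 8-week MII to DMSO 2-cell embryos, 30 of 48 genes (62.5%) were called, 3 higher and 27 lower, where 20.2% of 22954 genes were called, 10.1% higher and 10.1% lower. From 12-month MII to 12-month 2-cell embryos, 27 of 48 (56.2%) were called, 2 higher and 25 lower, where 12.6% of 22954 genes were called, 5.80% higher and 6.76% lower. The median log2 change over the 48 genes was -1.36 in the first and -1.26 in the second, beside 0.33 and 0.19 over all genes. No library is shared by the 2 steps, although both were tested in 1 fit with a shared estimate of the spread. In both, 23 genes were lower, 85.2% of the 27 and 92% of the 25. Of all 48 genes, 52.1% were lower in the older and 56.2% in the younger step. Ect2, Mad2l1, Kif4 and Cdca8 were called lower only in the younger step and Bub3 and Ube2c only in the older, and these differences between steps were not tested.

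In the younger step all 6 cytokinesis and all 6 spindle genes fell. Ndc80, which anchors kinetochores to microtubules (ENSMUSG00000024056.10, chr17:71496100-71526857), went from 346 and 533 CPM to 10.3 and 18.1, -5.00 ± 0.38 on the log2 scale (adjusted p = 6.1e-05). Aurkc went from 176 and 322 to 10.05 and 18.6 CPM (-4.17 ± 0.44, adjusted p = 2.5e-04), and Pttg1 from 20650.1 and 20327 to 2402 and 4492 (-2.61 ± 0.30, adjusted p = 3.6e-04). Nusap1, a spindle microtubule bundler, went from 765 and 1402 to 153 and 301 CPM (-2.30 ± 0.42). Sgo2a, Espl1 and Cdc20 changed by -2.41 ± 0.41, -2.27 ± 0.33 and -2.25 ± 0.29. Every 2-cell library of these genes lay below both MII libraries, which the rule for describing genes required of all but Cdc20.

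Cenpc1 and Cdk1 had the largest falls in the older step. Cenpc1 (CENP-C), the inner kinetochore platform, went from 33.3 and 30.5 CPM to 1.10 and 4.22 (-3.59 ± 0.63, adjusted p = 0.005). Cdk1 went from 148 and 197 to 24.8 and 25.2 CPM (-2.80 ± 0.41, adjusted p = 0.0018). Aurkc went from 113 and 113 to 14 and 20.1 CPM (-2.75 ± 0.42) and Ndc80 from 287 and 286 to 49 and 46.1 (-2.61 ± 0.34). Prc1, a bundler of the central spindle, went from 591 and 694 to 113 and 106 CPM (-2.56 ± 0.33, adjusted p = 9.2e-04). For each of these genes the MII and 2-cell libraries were again apart, as the rule for describing them required.

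Few genes rose. Top2a was higher at 2 cells in both steps, by 1.28 ± 0.35 (adjusted p = 0.029) and 1.41 ± 0.35 (adjusted p = 0.027). Zwint and Fzr1 rose in the younger step, by 1.36 ± 0.35 and 2.83 ± 0.71, and Ttk, the kinase that starts checkpoint signalling, in the older, by 1.39 ± 0.37. In the younger step 17 to 28 genes were called without any 1 library, with 17 (all lower) without DMSO 2-cell replicate 2. In the older step 8 to 20 were called, with 8 without 12-month 2-cell replicate 1, 17 without its replicate 2 and 16 without 12-month MII replicate 2. The calls of Top2a, Fzr1, Zwint and Ttk were among those lost. With library sizes from genes alone the median of all genes in the younger step moved from 0.33 to 0.64, and 4 genes were higher and 21 lower. In the older step that median moved from 0.19 to 0.39, and 2 genes were higher and 22 lower. Oocyte markers summed to 31857 to 32352 CPM in MII 8-week oocytes and 4183 to 4686 in DMSO 2-cell embryos, and their part was not tested. The list of 119 other mitotic genes had 8 higher and 36 lower in the younger and 2 higher and 27 lower in the older step, with Mos, the kinase that holds MII arrest (-6.80 ± 0.47 and -7.78 ± 0.49), and the checkpoint gene Bub1b (-6.23 ± 0.33 and -5.71 ± 0.32) among those lower in both.

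**Figure D4:**
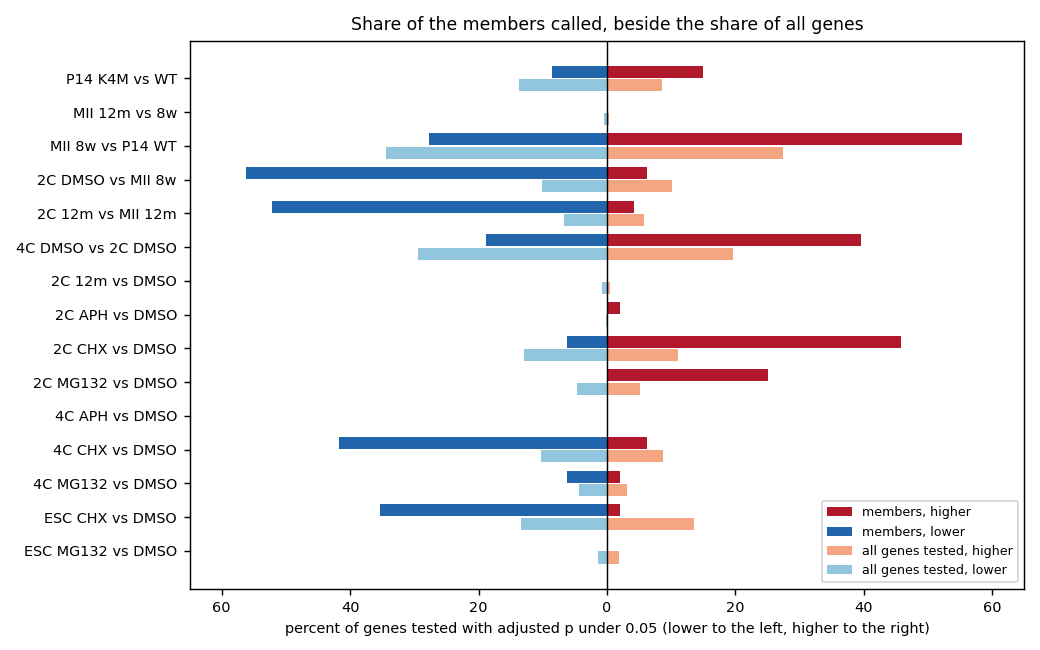
Percent of the 48 genes called higher (dark red) or lower (dark blue) in each comparison, above the same percent of all genes tested (light colours). Among the 15 comparisons between 2 groups, the 2 MII to 2-cell steps and cycloheximide at 4 cells reach furthest to the left, and the P14 to MII step, cycloheximide at 2 cells and the 2-cell to 4-cell step furthest to the right.

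Between the 2-cell and 4-cell stages in DMSO the group rose and split. Aurora kinases, Cdk1, Cdc20 and Top2a rose, and Nuf2, Ttk, Ccnb2, Pttg1 and Fzr1 fell. In all, 28 of 48 genes (58.3%) were called, 19 higher and 9 lower, where 49.0% of 22954 genes were called, 19.6% higher and 29.4% lower. The median change was 0.60 over the 48 genes and -0.57 over all genes. The DMSO 2-cell libraries also served the MII to 2-cell step and the 2-cell drug comparisons, so none of these is independent of the others.

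Kif11 went from 32.1 and 11.6 CPM at 2 cells to 214 and 186 at 4 cells (3.26 ± 0.49, adjusted p = 3.9e-04). Aurkc went from 10.05 and 18.6 to 104 and 134 CPM (3.13 ± 0.42, adjusted p = 1.9e-04), Ndc80 from 10.3 and 18.1 to 99.1 and 94.5 (2.84 ± 0.34), and Cdk1 from 59.3 and 48 to 375 and 302 (2.73 ± 0.41). Aurkb rose from 7.58 and 2.52 to 44.4 and 17.2 CPM (2.67 ± 0.78, adjusted p = 0.017). Kif2c, which depolymerises microtubules at centromeres, changed by 2.40 ± 0.48, Ube2c by 2.33 ± 0.31 and Cdc20 by 2.05 ± 0.29. These 4-cell libraries lay above both 2-cell libraries of the gene, which the rule for describing genes required of all but Ube2c and Cdc20.

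Nuf2 went the other way from its partner Ndc80, from 338 and 405 to 36.5 and 36.1 CPM (-3.28 ± 0.32, adjusted p = 2.6e-05). Ttk went from 157 and 244 to 29.1 and 18.5 CPM (-3.01 ± 0.40) and Ccnb2 (cyclin B2) from 178 and 187 to 19.98 and 23.9 (-2.98 ± 0.29, adjusted p = 2.3e-05). Its paralog Ccnb1, at 2282 and 2337 CPM at 2 cells and 2085 and 1997 at 4 cells, was not called (-0.10 ± 0.25, adjusted p = 0.76). Pttg1, Mastl and Cenpf changed by -2.14 ± 0.30, -2.09 ± 0.27 and -2.03 ± 0.33. From 23 to 26 genes were called without any 1 library and 19 calls held in every such fit, with Aurkb not among them (adjusted p = 0.097 without DMSO 2-cell replicate 2). DESeq2 size factors moved the median of all genes to -0.36 and gave 23 higher and 9 lower, and library sizes from genes alone moved it to -0.73 and gave 19 higher and 11 lower. Oocyte markers summed to 132 to 138 CPM at 4 cells, and the cumulus and granulosa list to 372 to 408, led by Gja1, against 34.7 to 45.2 at 2 cells. At 4 cells Gja1 averaged 373 CPM and 6 of the 10 genes of that list were at 0. The part of these lists was not tested. Among 119 other mitotic genes 42 were higher and 36 lower, including Wee2, the oocyte kinase that restrains Cdk1 (-7.02 ± 0.36).

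The promoters of these genes are known for 2 short elements bound by cell-cycle complexes, the CHR and the CCAAT box. Read 5′ to 3′ along the gene's strand, a match was TTTGAA or TTCAAA for the CHR and CCAAT or ATTGG for the CCAAT box. In RefSeq promoters (GRCm38.p6, 250 bases before to 50 after the start), 41 of the 48 genes had an entry. A CHR was found in 23 of the 41 (56.1%) and in 20.2% of 27025 genes. A CCAAT box was found in 30 (73.2%) and in 41.1%, and both in 19 (46.3%) and in 8.97%. Each element was counted over all entries of a gene, so the 2 elements of a gene could lie in different entries. In 1 of the 45 promoter entries of the 41 genes the 2 kinds of match overlapped. Of the genes higher at 4 cells than at 2 cells, 13 of the 14 with an entry held a CHR (92.9%), and of those lower 3 of 9 (33.3%), Ccnb2, Ttk and Cenpf. A CCAAT box was held by 12 of those 14 (85.7%) and 6 of those 9 (66.7%). With cycloheximide, a CHR was held by 14 of the 19 genes with an entry that were higher at 2 cells (73.7%) and 8 of the 20 not called (40%), and by 11 of 17 lower at 4 cells (64.7%) and 11 of 21 not called (52.4%). These matches describe letters and are not measured binding sites. The promoters of Cdk1 (minus strand, chr10:69352863-69353162), Kif11 (plus strand, chr19:37376132-37376431) and Cdc20 (minus strand, chr4:118437294-118437593), which rose, and of Ccnb2 (minus strand, chr9:70421505-70421804), Nuf2 (minus strand, chr1:169531415-169531714) and Pttg1 (minus strand, chr11:43425932-43426231), which fell, are shown as examples with and without the elements, written 5′ to 3′ with every match in capitals.
Cdk1: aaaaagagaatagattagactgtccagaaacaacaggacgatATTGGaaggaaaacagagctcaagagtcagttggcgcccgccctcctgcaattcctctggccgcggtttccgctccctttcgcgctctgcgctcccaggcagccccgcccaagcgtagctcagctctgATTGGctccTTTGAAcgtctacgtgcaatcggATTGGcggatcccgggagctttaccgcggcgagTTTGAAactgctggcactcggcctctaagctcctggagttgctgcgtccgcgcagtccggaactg
Kif11: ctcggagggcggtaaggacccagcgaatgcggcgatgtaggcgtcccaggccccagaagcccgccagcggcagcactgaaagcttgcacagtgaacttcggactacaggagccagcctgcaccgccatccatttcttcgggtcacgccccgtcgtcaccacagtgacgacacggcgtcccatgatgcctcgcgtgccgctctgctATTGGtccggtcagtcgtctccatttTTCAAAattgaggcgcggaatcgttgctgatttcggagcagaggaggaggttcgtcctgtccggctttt
Cdc20: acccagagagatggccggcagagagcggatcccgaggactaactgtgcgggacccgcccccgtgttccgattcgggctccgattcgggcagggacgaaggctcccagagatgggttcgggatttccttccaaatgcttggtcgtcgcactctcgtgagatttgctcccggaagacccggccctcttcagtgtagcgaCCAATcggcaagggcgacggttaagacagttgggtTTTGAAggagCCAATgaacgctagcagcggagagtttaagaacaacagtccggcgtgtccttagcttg
Ccnb2: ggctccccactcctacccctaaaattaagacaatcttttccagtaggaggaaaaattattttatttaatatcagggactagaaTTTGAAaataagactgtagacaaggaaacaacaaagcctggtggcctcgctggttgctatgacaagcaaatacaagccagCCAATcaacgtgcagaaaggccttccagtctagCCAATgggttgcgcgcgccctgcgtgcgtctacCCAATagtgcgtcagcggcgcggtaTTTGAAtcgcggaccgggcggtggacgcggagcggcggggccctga
Nuf2: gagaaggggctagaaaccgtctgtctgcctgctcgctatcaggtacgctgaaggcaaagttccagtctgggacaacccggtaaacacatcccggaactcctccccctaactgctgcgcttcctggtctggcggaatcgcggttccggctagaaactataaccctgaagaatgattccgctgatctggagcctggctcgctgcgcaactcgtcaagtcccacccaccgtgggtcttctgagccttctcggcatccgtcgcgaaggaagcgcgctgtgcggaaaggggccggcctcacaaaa
Pttg1: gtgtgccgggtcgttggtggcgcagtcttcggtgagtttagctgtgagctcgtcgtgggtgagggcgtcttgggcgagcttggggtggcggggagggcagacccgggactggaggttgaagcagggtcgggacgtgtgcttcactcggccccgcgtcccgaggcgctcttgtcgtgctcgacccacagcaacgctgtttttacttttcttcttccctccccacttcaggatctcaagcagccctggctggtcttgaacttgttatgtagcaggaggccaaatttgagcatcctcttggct
Cdk1, Kif11 and Cdc20 each hold both elements. Among the genes that fell, Ccnb2, Ttk and Cenpf hold both as well, and the windows of Nuf2 and Pttg1 hold neither. The Pttg1 window, placed by the RefSeq start, lies wholly inside the GENCODE gene (chr11:43420250-43426251). The windows of Kif2c, Cdca8 and Kif4 also lie inside their GENCODE genes. For these genes the bases upstream of the GENCODE start were not searched.

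Cycloheximide at the 2-cell stage was followed by higher levels of much of the group. Separase, Cdc20, Aurora kinases A and C, Plk1 and most motors and cytokinesis genes were higher, while Zwint, Spc24 and Spc25 were lower. In all, 25 of 48 genes (52.1%) were called, 22 higher and 3 lower, where 24.0% of 22391 genes were called, 11.0% higher and 13% lower. The median change was 1.03 over the 48 genes and -0.26 over all genes. By role, 4 of 6 cytokinesis, 4 of 6 spindle, 5 of 9 kinetochore and 3 of 6 checkpoint genes were higher.

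Espl1 stood at 13.5 and 13.2 CPM with DMSO and 76.5 and 144 with cycloheximide (3.06 ± 0.42, adjusted p = 5.0e-04). Ndc80 stood at 10.3 and 18.1 CPM with DMSO and 107 and 109 with cycloheximide (2.95 ± 0.42, adjusted p = 5.9e-04), and Aurkc at 10.05 and 18.6 CPM with DMSO and 70.6 and 139 with cycloheximide (2.88 ± 0.46, adjusted p = 0.0012). Cdc20 stood at 51.7 and 39.2 CPM with DMSO and 212 and 380.5 with cycloheximide (2.71 ± 0.39), and Nusap1 at 153 and 301 CPM with DMSO and 1822 and 1228 with cycloheximide (2.77 ± 0.42). In all of these the cycloheximide libraries lay above the DMSO libraries, as the rule for describing them required.

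Kif23 stood at 149 and 106 CPM with DMSO and 882 and 712 with cycloheximide (2.66 ± 0.43). Plk1 stood at 24.4 and 26.2 CPM with DMSO and 93.7 and 107 with cycloheximide (2.00 ± 0.35), Aurka at 80.6 and 80.5 CPM with DMSO and 245 and 316 with cycloheximide (1.81 ± 0.34), Tpx2 at 180.1 and 190.4 CPM with DMSO and 915 and 793 with cycloheximide (2.22 ± 0.31) and Cdk1 at 59.3 and 48 CPM with DMSO and 138 and 316 with cycloheximide (2.09 ± 0.37). Levels in the MII 8-week libraries were 691 and 458 CPM for Kif23, 58.3 and 21.6 for Plk1, 77.8 and 119 for Aurka, 574 and 466 for Tpx2 and 83 and 195 for Cdk1. Pttg1 and Ccnb1, the most abundant of the genes per kilobase in DMSO 2-cell embryos, were not called: Pttg1 stood at 2935 and 5252 CPM with cycloheximide (0.26 ± 0.36, adjusted p = 0.63) and Ccnb1 at 2616 and 1883 (-0.02 ± 0.33, adjusted p = 0.98).

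Zwint stood at 34.8 and 48.5 CPM with DMSO and 12.2 and 8.16 with cycloheximide (-2.01 ± 0.41, adjusted p = 0.0049). Spc24 stood at 10.4 and 16.9 CPM with DMSO and 2.55 and 4.20 with cycloheximide (-2.01 ± 0.49), and Spc25 at 93.4 and 128 CPM with DMSO and 48 and 28.2 with cycloheximide (-1.52 ± 0.34). The Ndc80 complex thus split, with Ndc80 higher, Spc24 and Spc25 lower and Nuf2 not called (-0.03 ± 0.34, adjusted p = 0.97). With the replicate numbers as a block, 28 genes were called, 24 higher and 4 lower. From 20 to 26 genes were called without any 1 library and 19 calls held in every such fit.

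Marker genes moved with the drug. Of the 10 oocyte markers, all detected in both groups, 7 were called higher, and they summed to 20345 to 30311 CPM with cycloheximide against 4183 to 4686 with DMSO. The 10 2-cell markers were all called lower, at a sum of 4.54 to 6.10 CPM against 1276 to 1465, with Tdpoz3 and Usp17lc at 0. Their part in the changes of the mitotic genes was not tested. A comparison of separate libraries can be set beside these values, though each fit took its spread partly from the other's libraries. Of the 22 genes higher with cycloheximide, 16 (72.7%) were among the 25 lower in the 12-month step from MII to 2 cells (64.0% of those). In that step 52.1% of the 48 genes were lower. Among 119 other mitotic genes 42 were higher and 11 lower, including Tacc3, a spindle microtubule stabiliser (4.30 ± 0.38), Mos (4.19 ± 0.64) and Ccnb3, cyclin B3 (3.86 ± 0.42).

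MG132 at 2 cells was followed by a smaller set of higher genes. Of 48 genes 12 (25.0%) were called, all higher, where 9.77% of 22391 genes were called, 5.10% higher and 4.68% lower. Ndc80 stood at 136 and 89.8 CPM with MG132 (2.99 ± 0.42 against DMSO, adjusted p = 0.0015) and Aurkc at 92.1 and 96.4 (2.71 ± 0.46, adjusted p = 0.0039). Nusap1 stood at 826 and 1041 CPM (2.03 ± 0.41). Zwilch, part of the complex that recruits Mad proteins, went from 6.79 and 8.69 CPM with DMSO to 27.3 and 28.8 (1.85 ± 0.39). Bub3, a checkpoint adaptor, stood at 124 and 216 CPM (1.68 ± 0.39) and Plk1 at 88 and 73.7 (1.67 ± 0.34). Kif23, Kif2c, Mis18a, Prc1, Aurka and Kif4 made up the 12.

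The MG132 calls depended on single libraries. Without DMSO 2-cell replicate 1 only 2 genes were called, without its replicate 2 there were 7 and without MG132 replicate 1 there were 6. Ndc80 and Aurkc held in every such fit, with a highest adjusted p of 0.014 and 0.036. DESeq2 size factors moved the median of all genes from -0.07 to -0.20 and gave 10 higher and 1 lower. Oocyte markers summed to 5979 to 8702 CPM with MG132, 5 of 10 of them called higher, and the 10 2-cell markers, all called lower, to 13.6 to 33.9 CPM with Tdpoz3 at 0; their part was not tested. Cycloheximide and MG132 share the DMSO libraries, so their values stand side by side: the fitted value of Espl1 was 3.06 ± 0.42 with cycloheximide and 1.06 ± 0.39 with MG132 (adjusted p = 0.12), and that of Cdc20 was 2.71 ± 0.39 and 0.13 ± 0.37 (adjusted p = 0.88). Among 119 other mitotic genes 22 were higher and 5 lower with MG132, including Tacc3 (3.80 ± 0.37).

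Aphidicolin at 2 cells left 1 gene of 48 (2.08%) called higher, beside 0.201% of 22391 genes called, 0.00893% higher and 0.192% lower. It was Mis18a, at 38.6 and 39.1 CPM with DMSO and 200.1 and 143 with aphidicolin (2.11 ± 0.35, adjusted p = 0.042). The call was lost in 3 of the 4 fits that left out a library, those without either DMSO library or without aphidicolin replicate 1, and 0 genes were then called. An unadjusted p under 0.05 was reached by 9 genes, all higher, and DESeq2 called 2. The shares of all genes by these 2 measures are not given, so the counts cannot be set against them. The 10 2-cell markers summed to 57.9 to 179 CPM with aphidicolin, with 5 called lower, and their part was not tested.

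At the 4-cell stage cycloheximide was followed by lower levels. Cyclins, Cdk1, Plk1, Aurka, Aurkc, Cdc20 and Mad2l1 fell, and Cenpf, Cenpc1 and Sgo2a rose. In all, 23 of 48 genes (47.9%) were called, 3 higher and 20 lower, where 19.0% of 22520 genes were called, 8.77% higher and 10.3% lower. The median change was -0.67 over the 48 genes and 0.44 over all genes. By role, 5 of 6 entry kinases and cyclins, 4 of 6 spindle genes and 2 of 3 genes of the anaphase-promoting complex were lower. So were 3 of 6 Aurora and passenger genes and 3 of 6 cytokinesis genes.

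Aurkc stood at 104 and 134 CPM with DMSO and 10.8 and 26.8 with cycloheximide (-2.61 ± 0.41, adjusted p = 0.0037). Mad2l1 stood at 757 and 618 CPM with DMSO and 118 and 111 with cycloheximide (-2.52 ± 0.22, adjusted p = 3.7e-04), and Cdc20 at 176 and 180.4 CPM with DMSO and 18.9 and 43.4 with cycloheximide (-2.46 ± 0.47, adjusted p = 0.0084). Plk1 stood at 35.5 and 38.6 CPM with DMSO and 6.84 and 8.98 with cycloheximide (-2.17 ± 0.52). In these genes both cycloheximide libraries lay below both DMSO libraries, as the rule for describing them required.

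Ccnb1 fell from 2085 and 1997 to 384 and 529.8 CPM (-2.10 ± 0.31, adjusted p = 0.0028), Cenpa from 228 and 244 to 48.1 and 59.7 (-2.07 ± 0.36) and Aurka from 164 and 144 to 31.1 and 44.9 (-1.96 ± 0.31). Cdk1, Kif11 and Ccna2 changed by -1.60 ± 0.40, -1.53 ± 0.39 and -1.18 ± 0.28. Cenpf, a large kinetochore protein of G2 and mitosis, rose from 45.9 and 40.2 to 179.6 and 174 CPM (2.10 ± 0.24, adjusted p = 9.5e-04). Cenpc1 rose from 14 and 15.9 to 37.4 and 50.05 (1.60 ± 0.43) and Sgo2a from 24.2 and 13 to 47.3 and 51.5 (1.48 ± 0.36).

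Of the 23 calls, 10 held without any 1 library: Aurkc, Mad2l1, Cdc20, Ccnb1, Cenpa, Aurka, Prc1, Anln, Birc5 and Cenpf. The count was 12 without DMSO 4-cell replicate 1, 10 without cycloheximide replicate 1 and 15 without cycloheximide replicate 2. Cenpc1 was lost in each of the 4 fits and Sgo2a in 3 (highest adjusted p = 0.17 and 0.19). The 10 2-cell markers summed to 284 to 683 CPM with cycloheximide against 52.3 to 84.5 with DMSO, and 4 of them were called higher. The cumulus and granulosa list summed to 16.3 to 23.4 against 372 to 408. With DMSO 6 of its 10 genes were at 0 and Gja1 averaged 373 CPM, and Gja1 alone was called lower. The part of either list was not tested. Among 119 other mitotic genes 12 were higher and 15 lower, including Arpp19, the phosphatase inhibitor that Mastl activates (-2.58 ± 0.31), and Anapc10, a subunit of the anaphase-promoting complex (-3.03 ± 0.33).

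MG132 at 4 cells changed little of the group. Of 48 genes 4 (8.33%) were called, 1 higher and 3 lower, where 7.38% of 22520 genes were called, 3.06% higher and 4.33% lower. Cenpf stood at 164 and 176 CPM (1.85 ± 0.24, adjusted p = 0.0053) and held without any 1 library. Aurkb went from 44.4 and 17.2 CPM with DMSO to 9.90 and 5.72 (-2.12 ± 0.50), Ndc80 from 99.1 and 94.5 to 51.1 and 33.3 (-1.35 ± 0.26) and Birc5 from 572 and 548 to 319.5 and 269.9 (-1.06 ± 0.20). These 3 calls did not hold, with 1 gene called without DMSO replicate 1, 1 without MG132 replicate 2, 2 without DMSO replicate 2 and 2 without MG132 replicate 1. DESeq2 called 9 genes. The cumulus and granulosa list summed to 69.00 to 99.2 CPM with MG132 against 372 to 408 with DMSO (Gja1 called lower), the 10 2-cell markers to 235 to 286 against 52.3 to 84.5 (2 called higher) and the 10 oocyte markers to 213 to 404 against 132 to 138 (Bmp15 called higher), and their part was not tested. With aphidicolin at 4 cells 0 of 48 genes were called by edgeR and by DESeq2, and 3 had an unadjusted p under 0.05, beside 0.0% of 22520 genes called.

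The effect of cycloheximide differed between the stages. In a test of the difference, the 4-cell effect minus the 2-cell effect over the 18 embryo libraries, 28 of 48 genes (58.3%) were called, 3 higher and 25 lower, where 20.9% of 27201 genes were called, 14.3% higher and 6.65% lower. The median difference was -1.53 over the 48 genes and 1.25 over all genes. The difference was -5.44 ± 0.67 for Aurkc (adjusted p = 5.4e-05) and -5.13 ± 0.64 for Cdc20 (adjusted p = 6.0e-05). It was -4.12 ± 0.65 for Plk1 and -3.87 ± 0.60 for Kif20a, a cytokinesis kinesin. Zwint (2.77 ± 0.60) and Ttk (1.94 ± 0.57) differed the other way. The third was Rec8, whose fitted difference is not given as a size because it had 0 counts with cycloheximide at 2 cells. From 21 to 25 genes were called without any 1 library, and 19 held in every such fit. The 2-cell and 4-cell comparisons use separate libraries: 10 genes were higher with cycloheximide at 2 cells and lower at 4 cells, 45.5% of the 22 and 50% of the 20, where 41.7% of all 48 genes were lower at 4 cells and 45.8% higher at 2 cells. They were Aurka, Aurkc, Cdc20, Cdk1, Cenpa, Kif20a, Kif2c, Plk1, Prc1 and Tpx2.

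Cenpf and Cenpc1 did not turn, since both were higher with cycloheximide at 2 and at 4 cells. For MG132, 6 of 48 genes (12.5%) differed between stages, all lower, where 11.2% of 27201 genes were called, 6.73% higher and 4.49% lower. Ndc80 was 136 and 89.8 CPM with MG132 at 2 cells and 51.1 and 33.3 at 4 cells, with a difference of effects of -4.34 ± 0.51 (adjusted p = 1.6e-04). Aurkc, Bub3, Aurka, Kif23 and Kif4 were the others. The median difference of effects was -0.87 over the 48 genes and 0.42 over all genes. With the replicate numbers as a block 10 genes were called, all lower, and 5 under either DESeq2 size factors or library sizes from genes alone. For aphidicolin 0 of 48 genes differed by edgeR and 7 had an unadjusted p under 0.05, while DESeq2 called 2, beside 0.0% of 27201 genes called.

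**Figure D5:**
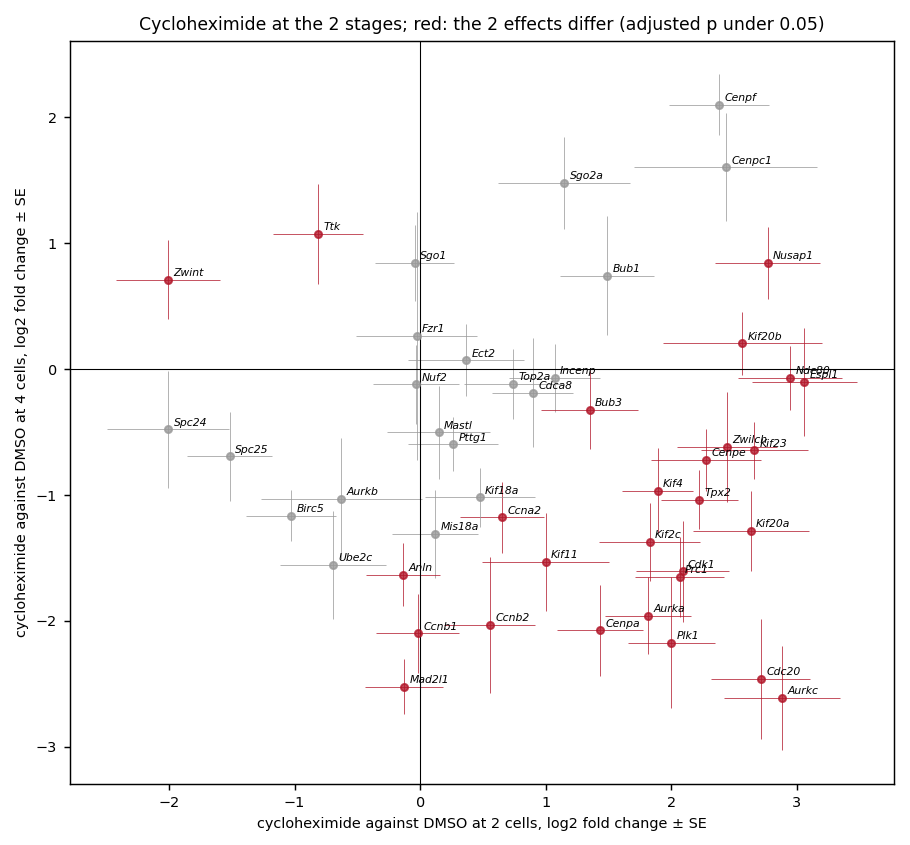
Log2 fold change with cycloheximide at 4 cells (vertical) against that at 2 cells (horizontal) for 47 genes, Rec8 being left out for its counts of 0. Points are fitted values, bars are standard errors, and red points have an adjusted p under 0.05 in the test of the difference. Aurkc, Cdc20 and Plk1 lie at the lower right and Cenpf at the upper right.

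In stem cells cycloheximide was followed by lower levels of passenger and entry genes. Of 48 genes 18 (37.5%) were called, 1 higher and 17 lower, where 27.0% of 18696 genes were called, 13.6% higher and 13.4% lower. By role, 4 of 6 Aurora and passenger genes and 3 of 6 entry kinases and cyclins were lower. So were 2 each of the cytokinesis, kinetochore, checkpoint and cohesion genes, and 1 each of the spindle and anaphase-promoting complex genes. Aurkc stood at 13.7 and 13.7 CPM with DMSO and 4.86 and 4.98 with cycloheximide (-1.56 ± 0.15, adjusted p = 7.7e-04), and Pttg1 at 17.9 and 18.7 CPM with DMSO and 7.09 and 7.69 with cycloheximide (-1.38 ± 0.12, adjusted p = 5.3e-04). Plk1 stood at 81.8 and 75.4 CPM with DMSO and 39.5 and 40.4 with cycloheximide (-1.05 ± 0.22, adjusted p = 0.011), Aurka at 69.1 and 65 CPM with DMSO and 38.4 and 38 with cycloheximide (-0.89 ± 0.14) and Cenpa at 62.7 and 60.3 CPM with DMSO and 37.3 and 38 with cycloheximide (-0.79 ± 0.13).

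Ccnb2 stood at 74.6 and 67.1 CPM with DMSO and 43.6 and 45.3 with cycloheximide (-0.75 ± 0.12). Rec8 was the gene called higher (5.76 and 5.996 CPM with DMSO, 8.29 and 8.74 with cycloheximide, 0.46 ± 0.14, adjusted p = 0.046), and the call was lost in each fit without 1 library. Aurkc and Pttg1 alone held in every such fit, which called 2 genes without either cycloheximide library or DMSO replicate 1 and 6 without DMSO replicate 2. A fit of the 4 DMSO and cycloheximide libraries alone called 33, 4 higher and 29 lower. The share of all genes called in that fit is not given here. Of the 20 genes lower with cycloheximide at 4 cells 9 (45.0%) were among the 17 lower in stem cells (52.9% of those), where 35.4% of all 48 were lower: Aurka, Aurkc, Ccnb1, Ccnb2, Cenpa, Kif20a, Kif2c, Mad2l1 and Plk1. Fibroblast markers summed to 327 to 331 CPM with cycloheximide against 602 to 729.8 with DMSO. The 2-cell markers summed to 51.97 to 52.2 CPM with cycloheximide against 5.53 to 6.29 with DMSO, and all 9 tested were called higher. The part of both lists was not tested. Of 115 other mitotic genes tested 7 were higher and 30 lower, the lower ones including 8 of 15 genes of the anaphase-promoting complex.

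With MG132 in stem cells 0 of 48 genes were called by edgeR and 1 by DESeq2, while 11 had an unadjusted p under 0.05, beside 3.24% of 18696 genes called, 1.90% higher and 1.34% lower. The 2 MG132 libraries differed from each other: Cdk1 stood at 82.2 and 57.7 CPM, Plk1 at 60.9 and 104 and Ube2c at 79.3 and 143, where the DMSO libraries had 83.6 and 84.9 for Cdk1, 81.8 and 75.4 for Plk1 and 102 and 93.8 for Ube2c. For Plk1 and Ube2c the MG132 libraries lay on either side of the DMSO libraries. The number of genes called depended on the library left out, and the share of all genes called in those fits is not given here.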

How the data were processed

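RNA of 32 mouse libraries in 16 groups of 2 was analysed from 1 count table per library. Per the submitters' processing notes reads were trimmed with cutadapt 1.16 and aligned with STAR to mm10; the sources used here name no counter, strand setting or handling of multi-mapping reads. The deposited values are raw counts for 55335 genes and 1153 repeat subfamilies. Total counts ran from 14313718 to 34713159, so depth limits mainly genes near 0, and intervals and floors cover counting error only. Gene rows were named with GENCODE M21, where 55154 matched without version. Comparisons were fitted on genes and repeats together with edgeR 4.0.16 (R 4.3.3), TMM scaling, filterByExpr at a minimum count of 10 and total of 15, and the robust quasi-likelihood test, adjusted by Benjamini-Hochberg over all genes tested. Comparisons within 1 stage or within the stem cells shared an estimate of the spread over the groups of that stage or of the stem cells. The P14 to MII step took its spread from all oocyte groups. The steps from MII to 2 cells and from 2 to 4 cells took it from the untreated and DMSO groups of MII oocytes and embryos. The stage differences took it from all embryo groups. The fits were tested on simulated data.

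Members and lists were proposed with earlier results of these data known, although the rule that finds the members uses no value. Any of the 48 genes could be named; 20 were set for values by library in the survey of levels. In each comparison up to 6 called genes per direction with the largest change, at least 10 CPM in the higher group and no overlap between groups are described, and up to 4 other mitotic genes by the same rule; further members given beside them, with values by library, were chosen after their values were seen. Alternatives were DESeq2 1.42.0, its size factors, no filter, library sizes from genes alone, only the libraries compared, the replicate number as a block, and leaving out each library. Crossed replicate numbers were added after seeing the data. Among DMSO and drug-treated 2-cell groups, libraries with the same number deviated together (r 0.238 to 0.460 over 6 pairs and 6813 genes). The main tests of these groups used no replicate block, so their standard errors and p-values leave this pairing out. The block was fitted only as an alternative.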

Additional observations from a re-analysis of the deposited data

Results flagged for a closer look

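Drug effects that differed between the 2-cell and 4-cell stages were picked out by the test of the difference itself (edgeR, over all genes). Values are the 4-cell effect minus the 2-cell effect in log2 units. For cycloheximide 28 of the 48 genes differed. The difference was -5.44 for Aurkc, -5.13 for Cdc20, -4.12 for Plk1, -3.87 for Kif20a, -3.72 for Aurka, -3.66 for Prc1, -3.64 for Cdk1 and -3.46 for Cenpa. It was -3.26 for Kif23, -3.20 for Tpx2, -3.15 for Kif2c, -3.11 for Espl1, -3.00 for Zwilch, -2.96 for Ndc80, -2.94 for Cenpe and -2.80 for Kif4. It was -2.53 for Ccnb2, -2.48 for Kif11, -2.34 for Mad2l1, -2.31 for Kif20b, -2.03 for Ccnb1, -1.86 for Nusap1, -1.78 for Ccna2, -1.62 for Bub3 and -1.44 for Anln. It was 2.77 for Zwint and 1.94 for Ttk. For MG132 6 of the 48 genes differed, by -4.34 for Ndc80, -3.28 for Aurkc, -2.39 for Bub3, -2.18 for Aurka, -1.83 for Kif23 and -1.55 for Kif4.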

How the results depend on the processing

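No gene call and no count reversed its direction. Of the gene calls, 249 held and 3 were lost with DESeq2, 248 and 4 with its size factors, 248 and 4 with no filter, 241 and 11 with library sizes from genes alone, 221 and 20 with only the libraries compared, and 246 and 6 with the replicate block. Over the fits without 1 library 809 held and 335 were lost. Counts that moved by over 1.5 times were as follows, and the cause was not tested. With no filter 2 genes were called in MII by age, 3 in 2-cell embryos by age, 4 with aphidicolin at 2 cells, 1 with aphidicolin at 4 cells, 8 with MG132 at 4 cells, 2 with MG132 in stem cells and 2 in the aphidicolin stage difference. With DESeq2 these were 1 in MII by age, 1 in 2-cell embryos by age, 2 with aphidicolin at 2 cells, 9 with MG132 at 4 cells, 1 with MG132 in stem cells, 2 in the aphidicolin and 14 in the MG132 stage difference. Only the libraries compared gave 0 with aphidicolin at 2 cells and 33 with cycloheximide in stem cells, and library sizes from genes alone gave 1 with MG132 in stem cells. The replicate block gave 1 gene in 2-cell embryos by age and 10 in the MG132 stage difference, and changed no other count by over 1.5 times. In P14 oocytes, where same-numbered libraries deviated in opposite directions (r -0.471), crossed pairing gave 25 of 47 genes and 5727 (37.2%) of all 15386 genes tested.

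Without any 1 library the counts ranged from 6 to 13 for P14, 0 to 7 for MII by age, 17 to 28 and 8 to 20 for the younger and older MII to 2-cell steps, and 0 to 1, 2 to 8 and 20 to 26 for aphidicolin, MG132 and cycloheximide at 2 cells. They ranged from 10 to 16 for cycloheximide and 1 to 2 for MG132 at 4 cells, and from 2 to 6 for cycloheximide and 0 to 30 for MG132 in stem cells. Where a library is left out, the lone library of its group is assumed to vary like the other groups. The shares of all genes called in these fits are not given here. Depth limits Rec8, at or near 0 in most oocyte and embryo libraries.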
